A study of Homo sapiens with 18 samples.

Results

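The 10 genes described here encode inflammatory cytokines and chemokines: IL1B, IL18, IL6, IL10, CXCL8, CXCL2, CXCL3, CCL2, CCL3 and CCL4. They were listed by name among 20033 protein-coding genes of GENCODE release 44, with no measured value in the rule. In the count list of a histone mark, each gene was assigned a single interval, namely the one within 2 kb of an annotated transcription start site (TSS) whose mean count over 4 libraries was highest, and intervals between 2 and 20 kb of a TSS were taken as distal. The cells were MOLM-13, a human acute myeloid leukemia line with a KMT2A rearrangement, cultured with 100 nM PR-957 (ONX-0914), an inhibitor of the immunoproteasome subunit PSMB8, or with DMSO as diluent. The labels give 72 h of treatment for every library, whereas a legend of the study gives 48 h for this assay. Cut&Tag, in which an antibody directs Tn5 transposase to a histone modification, was performed for H3K27ac, H3K27me3, H3K4me1 and H3K4me3 with 2 libraries per treatment and mark, 16 in all, and 2 IgG samples are not analysed here. MOLM-13 is a single cell line, and nothing in the labels says that replicates came from separate cultures, so the p-values measure only the spread between these libraries.

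Many cytokine and chemokine genes, though not all, are kept quiet in resting myeloid cells and are switched on within hours of a danger signal. NF-kB and AP-1, acting at promoters and nearby enhancers, are the main factors that switch them on. H3K4me3 marks promoters, H3K4me1 marks enhancers and the flanks of promoters, H3K27ac marks promoters and enhancers in use, and H3K27me3 marks chromatin held silent by Polycomb. Interleukins 1 beta and 18 are made as inactive precursors that the inflammasome protease CASP1 cuts, so that their release depends on more than their chromatin.

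Total counts were 9885836 to 14165777 for H3K27ac and 10032503 to 12047958 for H3K27me3. The H3K4me1 libraries held 23874111 to 30584219 counts in DMSO and 15204186 to 22790073 in PR-957. Likewise, the H3K4me3 libraries held 42037643 to 44591150 in DMSO and 30070119 to 30454212 in PR-957, so that depth and treatment cannot be told apart in these 2 marks beyond the scaling. Of 12 markers of myeloid leukemia, 10 had an H3K27ac interval within 2 kb of a TSS, CD33, SPI1, CEBPA, MPO and FLT3 among them, and CD14 and CD34 had none. None of 4 T cell markers and none of 5 epithelial or fibroblast markers had an H3K27ac interval, 1 of 4 erythroid markers had one, and the B cell markers CD79A and PAX5 had one each. The lists of intervals are the authors' own and hold no values for the stretches between them, so a gene without an interval has no measured level here.

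Intervals of at least 1 mark lay near 8 of the 10 genes, and 4 of the genes had H3K4me3 or H3K27ac near a TSS. H3K4me1 had an interval near the TSS of 6 genes, H3K4me3 near 3 (IL18, CXCL8 and CXCL2), H3K27ac near 2 (IL10 and CXCL2) and H3K27me3 near 1 (CXCL3). For comparison, H3K27ac had such an interval for 60.4% of all protein-coding genes, H3K4me3 for 63.9%, H3K4me1 for 43.4% and H3K27me3 for 19.8%. No member had intervals of all 4 marks, so that no genes with a similar pattern over the 4 marks are named. CCL3 and CCL4 had no interval of any mark and lie in a long stretch without any, described below, so they cannot be counted as lacking a mark. In the map of intervals around each TSS, H3K4me1 extends over or beside the start of IL1B, IL18, IL6, IL10, CXCL8 and CCL2, while CXCL2 and CXCL3 have other marks at their starts.

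**Figure D1:**
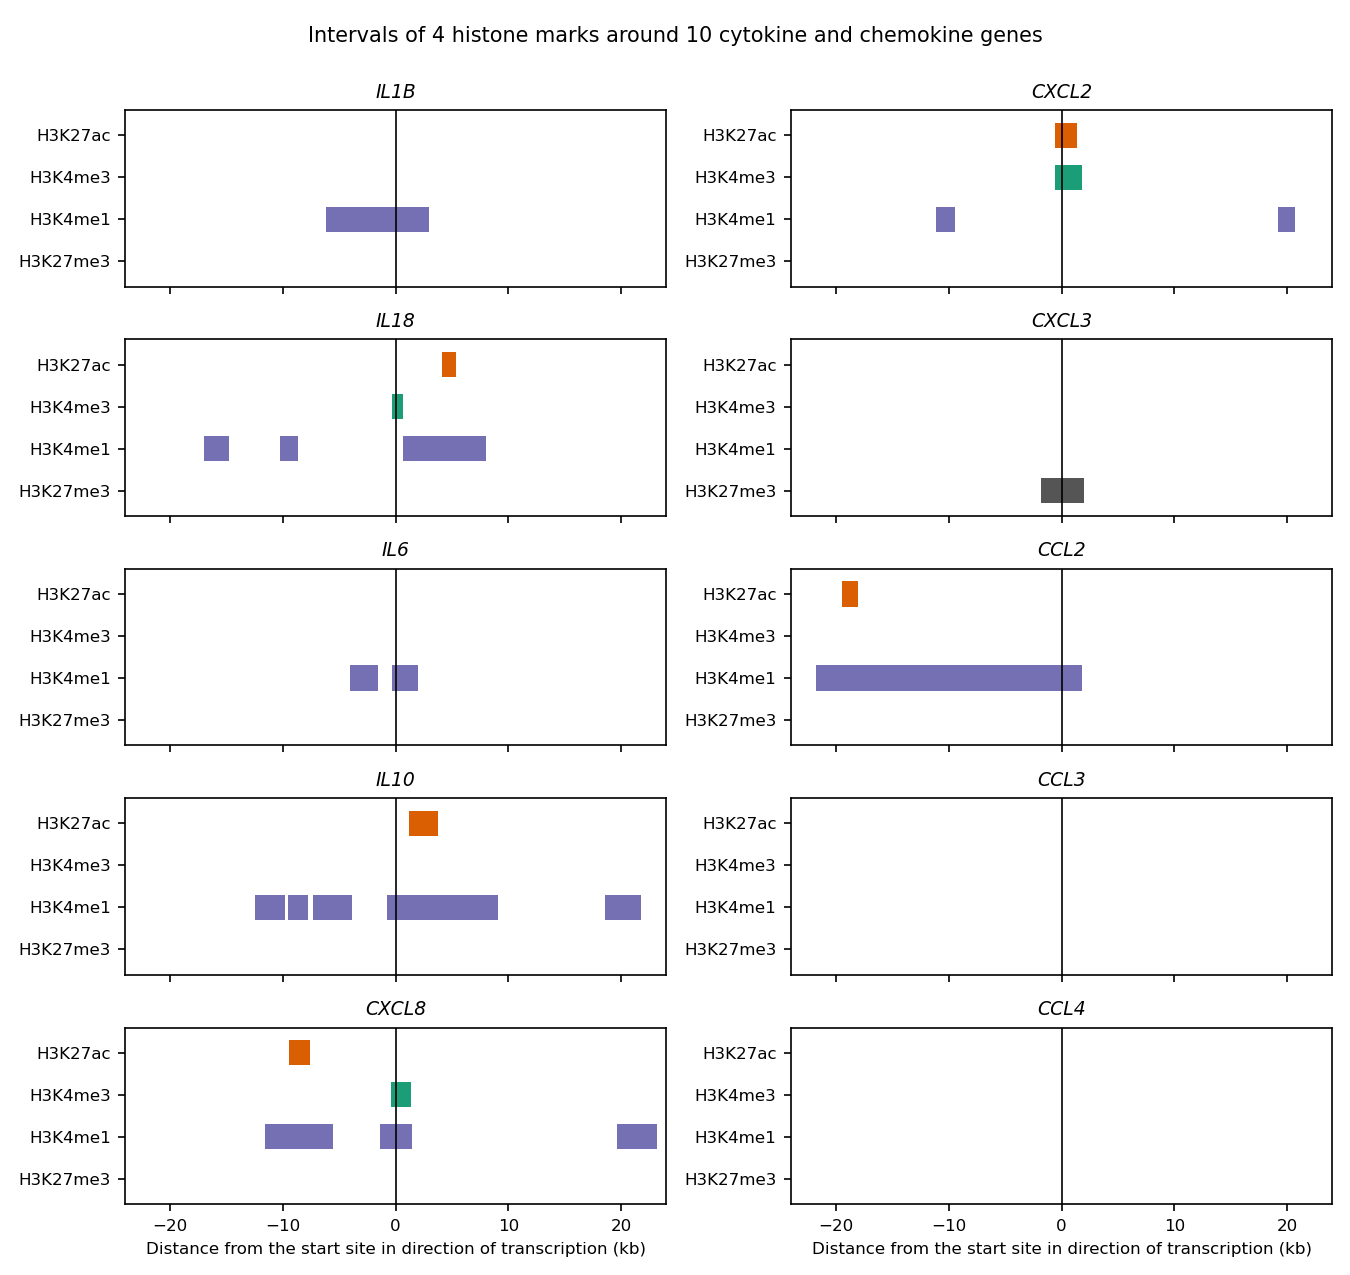
Intervals of each mark within 20 kb of a TSS of the 10 genes, with overlapping intervals merged. The horizontal axis gives the distance in kb from the most upstream TSS in the direction of transcription (vertical line), and each row is a mark; CXCL2 has H3K27ac and H3K4me3 at its start, CXCL3 has H3K27me3 alone, and CCL3 and CCL4 have no interval.

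The upstream sequences of 5 genes are shown because they set the CXCL2 and CXCL3 promoters, which are close paralogs with different marks, beside CXCL8, which also carried H3K4me3, and beside IL6 and IL1B, which had H3K4me1 only. They are the 200 bases before the RefSeq start site (GRCh38.p14), written 5′ to 3′ in the direction of transcription. CXCL2 is at chr4:74099196-74099395 (minus strand), CXCL3 at chr4:74038690-74038889 (minus strand), CXCL8 at chr4:73740369-73740568 (plus strand), IL6 at chr7:22727000-22727199 (plus strand) and IL1B at chr2:112836780-112836979 (minus strand). Capitals mark matches, on either strand, to the NF-kB consensus, to its core GGAATTTCC (a pattern chosen after the sequences were seen), to the AP-1 pattern TGANTCA and to the TATA pattern TATAAA.
CXCL2: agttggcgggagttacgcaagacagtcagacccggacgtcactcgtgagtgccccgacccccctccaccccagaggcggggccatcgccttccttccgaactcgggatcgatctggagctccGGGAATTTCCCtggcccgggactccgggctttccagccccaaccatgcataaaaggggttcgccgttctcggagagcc
CXCL3: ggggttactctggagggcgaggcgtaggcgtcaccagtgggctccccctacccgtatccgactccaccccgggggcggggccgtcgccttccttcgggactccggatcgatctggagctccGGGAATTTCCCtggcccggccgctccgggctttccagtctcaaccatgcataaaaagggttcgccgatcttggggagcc
CXCL8: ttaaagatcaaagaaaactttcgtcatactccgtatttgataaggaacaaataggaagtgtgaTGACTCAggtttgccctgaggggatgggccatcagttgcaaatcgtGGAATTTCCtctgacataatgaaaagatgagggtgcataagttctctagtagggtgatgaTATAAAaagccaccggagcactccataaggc
IL6: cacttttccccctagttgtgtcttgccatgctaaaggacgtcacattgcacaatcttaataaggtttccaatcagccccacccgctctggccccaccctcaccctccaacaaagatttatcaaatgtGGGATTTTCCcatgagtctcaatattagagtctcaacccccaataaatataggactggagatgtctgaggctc
IL1B: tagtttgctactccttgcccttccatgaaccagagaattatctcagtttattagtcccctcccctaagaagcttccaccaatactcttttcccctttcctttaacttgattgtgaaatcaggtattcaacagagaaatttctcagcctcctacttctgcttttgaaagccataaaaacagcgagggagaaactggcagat

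CXCL2 and CXCL3 share 161 of 208 aligned positions of these sequences, an identity of 77.4%, against 45.3% between CXCL2 and CXCL8. Both hold the NF-kB consensus, from 78 to 69 bases before the start in CXCL2 and from 79 to 70 in CXCL3, and in both it also matches on the opposite strand, shifted by 1 base. IL6 holds another match 73 to 64 bases before its start, and 4.2% of 34943 RefSeq promoters hold a match in a window of this length. The core was found in CXCL2, CXCL3 and CXCL8, overlapping the consensus in CXCL2 and CXCL3, and in 0.318% of all promoters. CXCL8 alone holds the AP-1 pattern, 137 to 131 bases before its start (5.39% of promoters), and the TATA pattern, 31 to 26 bases before it (8.61%). The CXCL2 and CXCL3 sequences have 17 and 18 CpG dinucleotides and a GC content of 64.5% and 66.5%, against medians of 9 and 59.0% over all promoters. IL1B has 1 CpG, IL6 has 2 and CXCL8 has 4, with a GC content of 41.5%, 46.5% and 42.0%. IL10 has 3 starts in the RefSeq table and CCL3 has several, and IL18, CCL2 and CCL4 were not matched there.

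With these intervals the PR-957 libraries were compared with DMSO in each mark by edgeR's quasi-likelihood test, adjusted over all intervals of the mark, and levels are given below in CPM, counts relative to the TMM-scaled library size. None of the 12 gene and mark pairs passed an adjusted p of 0.05. Of all represented genes, 0.582% passed it in H3K27ac, 13.9% in H3K27me3, 2.21% in H3K4me1 and 0.202% in H3K4me3. At an unadjusted p under 0.05, 1 of 6 genes (IL18) was called in H3K4me1, where 17.5% of all genes were, and none in the other marks, where 9.65% (H3K27ac), 24.4% (H3K27me3) and 8.09% (H3K4me3) of all genes were. DESeq2 called none of the 6 pairs for which it gave an adjusted p. An exact permutation test of 2 libraries against 2 cannot go below 0.333. A lower count of a mark in such libraries may come from fewer cells that carry it or from less of it per cell, which cannot be told apart.

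**Figure D2:**
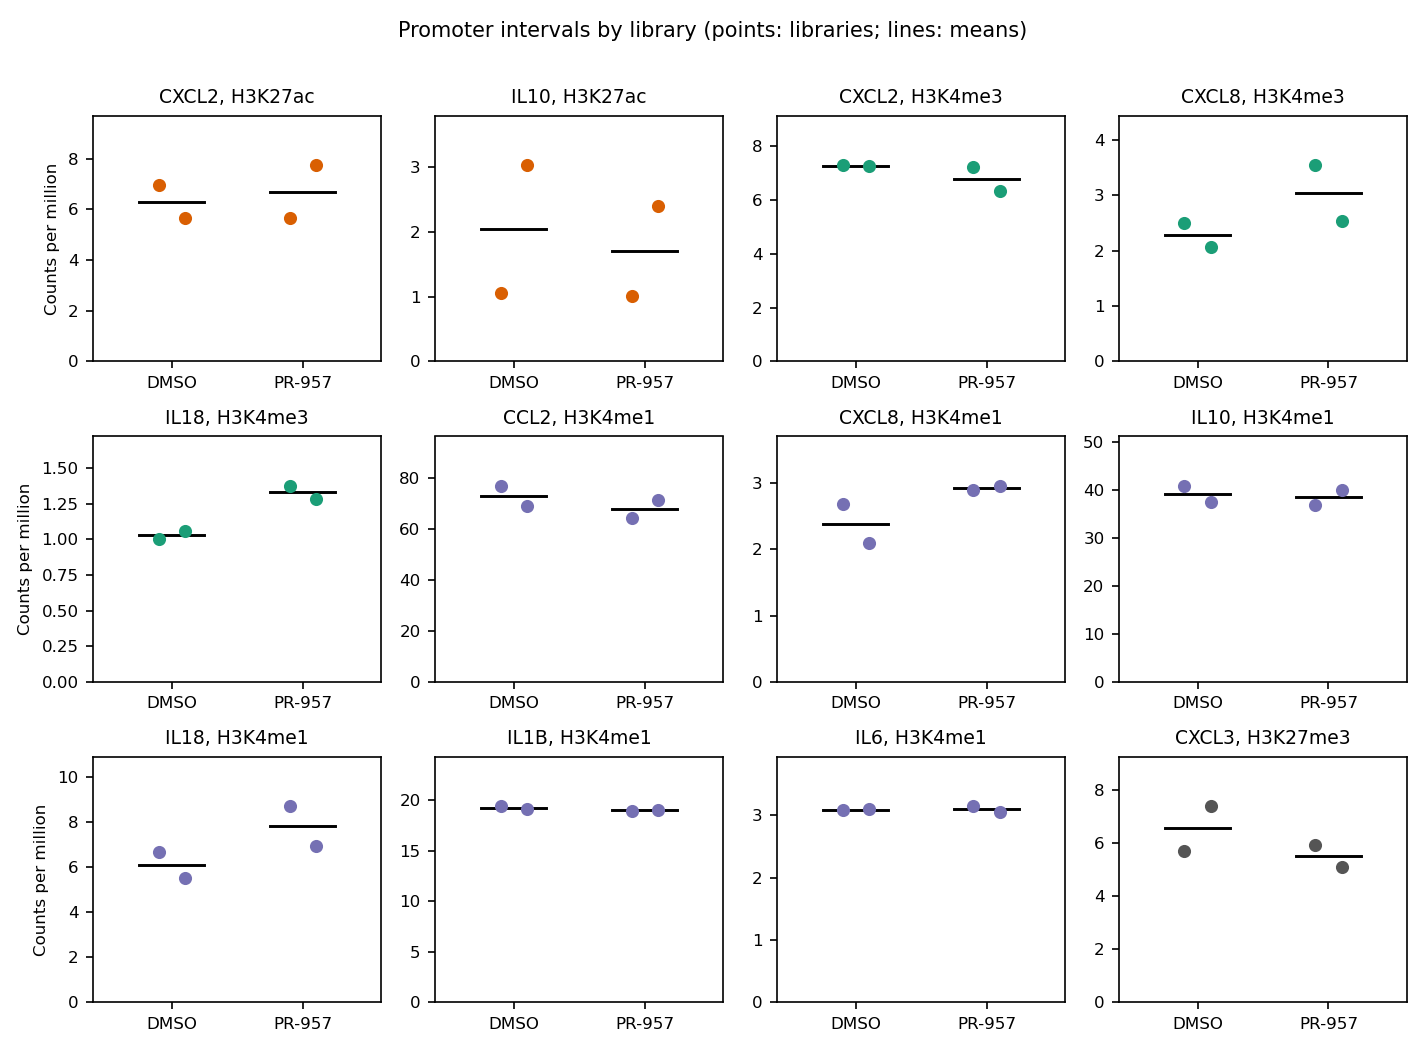
TMM-scaled CPM of each library at the 12 promoter intervals, by treatment, with each vertical axis starting at 0. Points are libraries and lines are means of 2 libraries; the groups are close together for IL1B, IL6 and IL10 in H3K4me1, and both PR-957 libraries lie above both DMSO libraries for IL18 and CXCL8 in H3K4me1 and H3K4me3.

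In the interleukin-1 family, IL1B encodes the main pyrogenic interleukin of monocytes and macrophages. Its TSS lay in an H3K4me1 interval of 8.36 kb (chr2:112833866-112842228) that covers exons of the gene and the region upstream. The level was 19.4 and 19.1 CPM in DMSO and 18.9 and 19.0 CPM in PR-957. Both treated libraries were thus just below both controls, with a log2 fold change of -0.02 (SE 0.12, 95% interval -0.25 to 0.21) and an adjusted p of 0.955. Its direction turned with library size alone (0.03), cyclic loess offsets (0.05) and a mean count of at least 50 (0.01). All 4 overlapping H3K4me1 intervals in the window gave values between -0.03 and -0.01. No other mark had an interval within 20 kb of IL1B, the nearest being 67.6 kb away for H3K4me3 and 68.2 kb away for H3K27ac.

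IL18 encodes an interleukin that drives interferon gamma production. An H3K4me3 interval of 0.916 kb lay across its start (chr11:112163439-112164355), and an H3K4me1 interval of 7.36 kb lay beside it in an intron (chr11:112156087-112163450). H3K4me1 was at 6.67 and 5.52 CPM in DMSO and at 8.73 and 6.96 CPM in PR-957, so that the groups did not overlap. The log2 fold change was 0.34 (SE 0.17, 95% interval 0.01 to 0.67) with an unadjusted p of 0.0433 and an adjusted p of 0.290. It ranged from 0.18 without PR-957 replicate 1, or 0.22 without DMSO replicate 2, to 0.51 without PR-957 replicate 2. H3K4me3 was at 1.01 and 1.06 CPM in DMSO and at 1.38 and 1.29 CPM in PR-957, from 39 to 45 counts per library. Here too both treated libraries were higher, with a log2 fold change of 0.37 (SE 0.41, 95% interval -0.44 to 1.17) and an adjusted p of 0.908. Over the alternative settings this H3K4me3 value ranged from 0.21 to 0.42. Within the H3K4me1 interval, 4.06 kb from the nearest annotated start and in an intron, lay an H3K27ac interval (chr11:112158740-112160014) with 23 and 23 counts in DMSO and 30 and 24 in PR-957. Scaled to depth this was 1.74 and 2.32 CPM against 3.02 and 1.69 CPM, and the groups overlapped (log2 fold change 0.20, SE 0.49, adjusted p = 0.968).

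Non-overlapping groups were common in these data. They were seen for 3 of 6 genes in H3K4me1 (IL18 and CXCL8 higher, IL1B lower) and for 3 of 3 in H3K4me3 (IL18 and CXCL8 higher, CXCL2 lower), against 48.0% and 37.3% of all represented genes in these marks. In H3K27ac and H3K27me3 the groups overlapped at all 3 intervals, where 38.4% and 49.2% of all genes had groups that did not overlap.

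IL6 encodes a cytokine that acts through IL6R and IL6ST to start the acute phase response. It had H3K4me1 alone, in a pair of stretches. The interval that represents it (chr7:22721794-22724252, 2.46 kb) ended 1.63 kb before the first annotated start, in an intron of STEAP1B, and the other stretch lay over the TSS. The level was 3.08 and 3.09 CPM in DMSO and 3.14 and 3.04 CPM in PR-957. The groups overlapped, with a log2 fold change of 0.00 (SE 0.26, 95% interval -0.51 to 0.51) and an adjusted p of 0.999. Over the 5 intervals in the window the values ran from -0.09 to 0.00. The interval with the highest count per kb gave -0.09. No H3K27ac interval lay within 61.8 kb of IL6 and no H3K4me3 interval within 92.7 kb.

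IL10, which encodes the main interleukin that restrains inflammatory output of macrophages, had dense H3K4me1. Its H3K4me1 interval of 9.92 kb (chr1:206765414-206775337) covers the gene and also a start site of the neighbouring gene IL19. It was at 41.0 and 37.5 CPM in DMSO and at 37.0 and 40.1 CPM in PR-957. The groups overlapped, with a log2 fold change of -0.02 (SE 0.11, 95% interval -0.25 to 0.20) and an adjusted p of 0.941. Its direction turned under 5 alternatives, with 0.08 under cyclic loess offsets as the highest value. The H3K27ac interval inside this H3K4me1 interval (chr1:206770783-206773320) was faint, with 14 and 30 counts in DMSO and 10 and 34 in PR-957. Replicate 1 was low and replicate 2 high under both treatments, at 1.06 and 3.02 CPM in DMSO and 1.01 and 2.39 CPM in PR-957. Its log2 fold change of -0.17 (SE 0.53, 95% interval -1.22 to 0.87, adjusted p = 0.975) turned to 0.71 without DMSO replicate 2 and to 0.28 without PR-957 replicate 1.

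Among the CXC chemokines, CXCL8 encodes interleukin 8, which draws neutrophils through CXCR1 and CXCR2. An H3K4me3 interval (chr4:73740143-73741924) and an H3K4me1 interval (chr4:73739200-73741993) both covered its start. H3K4me3 was at 2.51 and 2.07 CPM in DMSO and at 3.54 and 2.54 CPM in PR-957. Replicate 1 of PR-957 was the highest, replicate 2 was barely above the higher DMSO library, and the log2 fold change was 0.41 (SE 0.27, 95% interval -0.11 to 0.93, adjusted p = 0.793). It dropped to 0.15 without PR-957 replicate 1, against 0.63 when replicate 2 of PR-957 was left out. H3K4me1 was at 2.68 and 2.09 CPM in DMSO and at 2.89 and 2.96 CPM in PR-957. Both treated libraries were again the higher, by a log2 fold change of 0.29 (SE 0.28, 95% interval -0.26 to 0.84, adjusted p = 0.655), which was 0.13 without DMSO replicate 2 and 0.48 without DMSO replicate 1.

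CXCL2, which encodes a ligand of CXCR2, was the only one of the 10 genes with H3K4me3 and H3K27ac together at its start. The H3K4me3 interval (chr4:74097359-74099817) was at 7.29 and 7.26 CPM in DMSO and at 7.22 and 6.34 CPM in PR-957. Replicate 2 of PR-957 was the lowest library, replicate 1 nearly equalled DMSO, and the log2 fold change was -0.10 (SE 0.14, 95% interval -0.38 to 0.18, adjusted p = 0.934). Over the alternative settings this value ranged from -0.20 to -0.01. The H3K27ac interval (chr4:74097818-74099815) was at 6.96 and 5.65 CPM in DMSO and at 5.64 and 7.74 CPM in PR-957. Each treatment thus had a high and a low library, with a log2 fold change of 0.09 (SE 0.23, 95% interval -0.36 to 0.55, adjusted p = 0.968) that turned to -0.04 without DMSO replicate 2 and to -0.17 without PR-957 replicate 2. Both intervals also cover the start of a non-coding gene, ENSG00000289241.

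CXCL3 encodes another ligand of CXCR2 and lies on the same strand as CXCL2, 298 kb from CXCL8 where CXCL2 is 359 kb from it. It carried H3K27me3 and no other mark within 20 kb, the nearest H3K27ac being 59.0 kb away. The H3K27me3 interval (chr4:74036853-74040617, 3.76 kb) covered the whole start region. It was at 5.71 and 7.40 CPM in DMSO and at 5.93 and 5.10 CPM in PR-957. The groups overlapped, since DMSO replicate 1 lay between the treated libraries, and the log2 fold change was -0.26 (SE 0.25, 95% interval -0.76 to 0.23, adjusted p = 0.702). With library size alone, which moved the median log2 fold change of all H3K27me3 intervals by 0.16, that of CXCL3 was -0.10, and without DMSO replicate 2 it was -0.05. The sources used here do not say how reads that fit several near-identical copies were counted, so values of these paralogs are uncertain in that respect.

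Along the 359 kb from CXCL8 to CXCL2, 10 protein-coding genes start and 3 have an interval of any mark within 2 kb of a TSS, namely CXCL8, CXCL3 and CXCL2. CXCL6, PF4V1, CXCL1, PF4, PPBP and CXCL5, the chemokine genes between them, have none. The map along the cluster shows H3K4me1 around CXCL8 and at isolated sites, and a single H3K27me3 stretch of 3.78 kb at CXCL3.

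**Figure D3:**
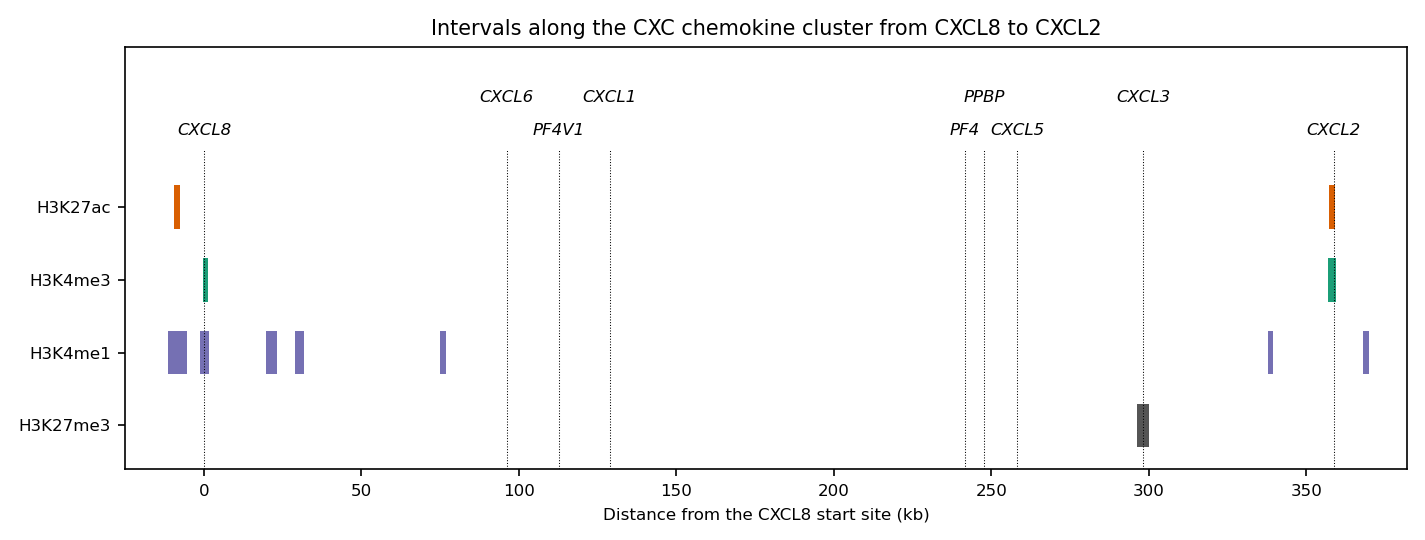
Merged intervals of 4 marks along the CXC chemokine cluster, by distance in kb from the CXCL8 TSS. Dotted lines mark the start sites of named genes; H3K4me3 sits at CXCL8 and CXCL2, H3K27ac at CXCL2 and upstream of CXCL8, and H3K27me3 at CXCL3.

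Of the CC chemokines, CCL2 encodes the chemokine that recruits monocytes through CCR2. It had the longest interval, 21.9 kb of H3K4me1 (chr17:34234409-34256286) that runs from the intergenic region upstream into the gene. The level was 76.9 and 69.0 CPM in DMSO and 64.1 and 71.1 CPM in PR-957. DMSO replicate 1 was the highest and PR-957 replicate 1 the lowest, and the other two lay between them, with a log2 fold change of -0.11 (SE 0.12, 95% interval -0.34 to 0.12) and an adjusted p of 0.696. The log2 fold change turned to 0.03 with cyclic loess offsets. With 1 library left out, it ranged from -0.19 (without PR-957 replicate 2) to -0.03 (without DMSO replicate 1). At the far end of this interval, 18.0 kb upstream of the TSS, lay an H3K27ac interval (chr17:34235760-34237235) with 33 and 22 counts in DMSO and 35 and 34 in PR-957. In CPM these were 2.50 and 2.22 against 3.52 and 2.39, and the groups overlapped (log2 fold change 0.30, SE 0.42, adjusted p = 0.929).

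CCL3 and CCL4 encode chemokines of activated macrophages and lie next to each other on chromosome 17. No interval of any mark was listed within 324 kb of CCL3 or 338 kb of CCL4. The stretch without intervals ran over 2.66 Mb (chr17:35765753-38427798) and held 45 protein-coding genes, among them genes that most cells use, such as TAF15, AATF, SYNRG, MRPL45 and TADA2A. What removed or left out intervals there was not tested, so nothing can be read from these files about the chromatin of CCL3, CCL4 or their near copies CCL3L3 and CCL4L2, which lie in the same stretch.

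The levels of different genes were compared per kb of interval in DMSO. For H3K4me1 the order was IL10 at 3.96 ± 0.25 CPM per kb (SD, n = 2 libraries, as for the next values), CCL2 at 3.34 ± 0.25, IL1B at 2.30 ± 0.03, IL6 at 1.26 ± 0.003, CXCL8 at 0.853 ± 0.15 and IL18 at 0.828 ± 0.11. The DMSO libraries of neighbours in this order did not overlap, except those of CXCL8 and IL18. The first places of the order depend on the interval, since by the interval of highest count per kb CCL2 was at 4.25 CPM per kb and IL10 at 4.10, with overlapping libraries. Among protein-coding genes with an H3K4me1 interval, CCL2 stood at the 91.7th percentile and IL10 above it, while CXCL8 and IL18 stood at the 22.5th and 20.8th. H3K4me3 was weak at all 3 genes. CXCL2 was at 2.96 ± 0.01 CPM per kb (25.5th percentile), CXCL8 at 1.28 ± 0.17 (9.36th) and IL18 at 1.13 ± 0.04 (7.92nd), and the libraries of CXCL8 lay just above those of IL18 without overlap. For H3K27ac, CXCL2 was at 3.16 ± 0.47 CPM per kb (36.9th percentile) and IL10 at 0.805 ± 0.55 (1.74th). H3K27me3 at CXCL3 was at 1.74 ± 0.32 CPM per kb, the 42.9th percentile.

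Distal intervals were found for 5 of the genes, and none passed the threshold. Of 3 H3K27ac intervals, at IL18, CXCL8 and CCL2, none had an unadjusted p under 0.05, where 8.01% of all tested H3K27ac intervals did and 0.238% passed after adjustment. Each of these 3 overlapped an H3K4me1 interval, as did 58.2% of all H3K27ac intervals. Of 29 distal H3K4me1 intervals, 1 had an unadjusted p under 0.05, where 16.2% of all tested H3K4me1 intervals did and 1.94% passed after adjustment. Many of the 29 are overlapping versions of the same stretch, and 19 of them had a log2 fold change above 0. Of all 108158 tested H3K4me1 intervals, 53922 had one above 0.

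The distal H3K4me1 interval with an unadjusted p under 0.05 lay 9.46 kb upstream of CXCL2 (chr4:74108654-74110323), between genes. It held 34 and 39 counts in DMSO and 34 and 60 in PR-957, or 1.15 and 1.63 CPM against 2.18 and 2.61 CPM. Both treated libraries were the higher, with a log2 fold change of 0.80 (SE 0.36, 95% interval 0.10 to 1.51), an unadjusted p of 0.0249 and an adjusted p of 0.227. The CXCL8 upstream region carried H3K27ac at 2.80 and 2.22 CPM in DMSO and 2.01 and 2.67 CPM in PR-957 (chr4:73731050-73732932, 7.59 kb from the TSS, log2 fold change -0.09, SE 0.44). H3K4me1 over the same region had its smallest p in chr4:73728969-73733473, at 11.7 and 11.2 CPM against 12.8 and 12.1 CPM (log2 fold change 0.11, SE 0.13, adjusted p = 0.720). For IL18, the smallest p belonged to an intronic version of its H3K4me1 stretch (chr11:112156087-112160516) at 5.28 and 4.52 CPM against 6.55 and 5.48 CPM, with a log2 fold change of 0.28 (SE 0.19, adjusted p = 0.483). Downstream of IL10 (chr1:206752799-206755960, 14.6 kb from the nearest start and between genes), H3K4me1 was at 3.32 and 3.18 CPM in DMSO and 4.62 and 3.91 CPM in PR-957. Both treated libraries were above both controls there, by a log2 fold change of 0.38 (SE 0.23, adjusted p = 0.415). Upstream of CCL2 the order was the opposite (chr17:34233518-34239664), with 18.6 and 17.6 CPM in DMSO and 13.7 and 16.9 CPM in PR-957 and a log2 fold change of -0.23 (SE 0.12, unadjusted p = 0.0612, adjusted p = 0.337).

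**Figure D4:**
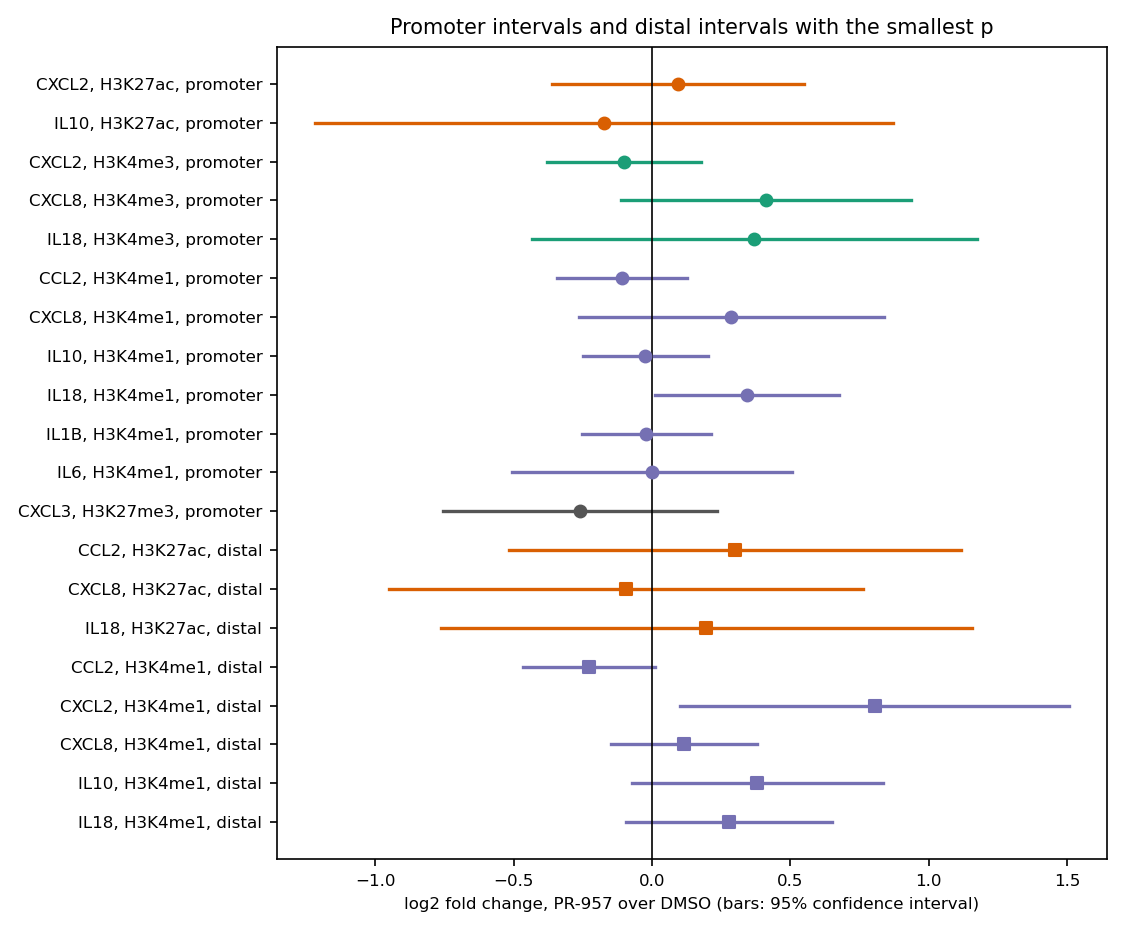
log2 fold change of PR-957 over DMSO with its 95% confidence interval in edgeR at the 12 promoter intervals (circles) and, for each gene and mark, the distal interval with the smallest p (squares), coloured by mark. Every interval includes 0 except those of IL18 in H3K4me1 and of the distal CXCL2 site, and neither passed after adjustment.

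The precision differed between the intervals. For the well-covered H3K4me1 intervals of IL1B, IL10 and CCL2, the 95% interval of the fold ran from 0.839 to 1.16, from 0.841 to 1.15 and from 0.789 to 1.09. For H3K27ac at IL10 it ran from 0.429 to 1.83, with 10 to 34 counts per library and a wide spread within each treatment.

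The genes around these ligands were described with a list of 98 genes in 7 roles, from other cytokines and chemokines to receptors, processing enzymes, signal transducers and factors of messenger RNA decay. The threshold was passed by 3 genes, all in H3K4me1. Of 59 listed genes with an H3K4me1 interval, 2 were higher (MAP3K7 and IL1A) and 1 lower (MYD88), and 15 had an unadjusted p under 0.05, 5 of them higher and 10 lower. Of all 15807 represented genes in H3K4me1, 2.21% passed and 17.5% had an unadjusted p under 0.05, 910 of them higher and 1850 lower. Of 54 genes in H3K27ac, 13 in H3K27me3 and 57 in H3K4me3, none passed, and 3, 1 and 3 had an unadjusted p under 0.05, where 9.65%, 24.4% and 8.09% of all genes had one. The median log2 fold change of the list was -0.01 in H3K27ac, -0.01 in H3K27me3, -0.11 in H3K4me1 and 0.00 in H3K4me3, beside 0.00, -0.03, -0.07 and -0.01 over all represented genes.

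MAP3K7 encodes TAK1, the kinase that passes interleukin-1 and Toll-like receptor signals on to NF-kB. Its H3K4me1 interval (chr6:90537520-90539074) held 7 and 12 counts in DMSO and 38 and 25 in PR-957. At 0.237 and 0.502 CPM against 2.44 and 1.09 CPM it was higher in both treated libraries, by a log2 fold change of 2.23 (SE 0.55, adjusted p = 0.0100), from a DMSO level per kb at the 0.149th percentile of protein-coding genes. This faint interval lies at another annotated start than the H3K4me3 of MAP3K7 (chr6:90585559-90588908), where the log2 fold change was -0.01 (adjusted p = 0.991). With 1 library left out, the H3K4me1 value ranged from 1.58 (without PR-957 replicate 1) to 2.83 (without DMSO replicate 2). IL1A, which encodes interleukin 1 alpha, rose from 3.96 and 3.01 CPM to 6.03 and 6.18 CPM (chr2:112784489-112789429, log2 fold change 0.80, SE 0.20, adjusted p = 0.0147). This interval lies 44.1 kb from the nearest start of IL1B, whose own H3K4me1 is given above. MYD88, the adaptor of interleukin-1, interleukin-18 and most Toll-like receptors, fell from 5.89 and 5.98 CPM to 2.57 and 4.04 CPM in an interval that also covers a start of ACAA1 (chr3:38136886-38141574, log2 fold change -0.81, SE 0.21, adjusted p = 0.0154). None of the 3 passed without DMSO replicate 1, without DMSO replicate 2 or without PR-957 replicate 1, and IL1A also missed the threshold without PR-957 replicate 2. Cyclic loess offsets ended the call of MAP3K7 (log2 fold change 1.67, adjusted p = 0.0878). With the interval of highest count per kb, IL1A (adjusted p = 0.0997) and MYD88 (adjusted p = 0.0951) missed the threshold while CCR1 passed it (adjusted p = 0.0499), and DESeq2 gave no adjusted p for MAP3K7, IL1A or MYD88.

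**Figure D5:**
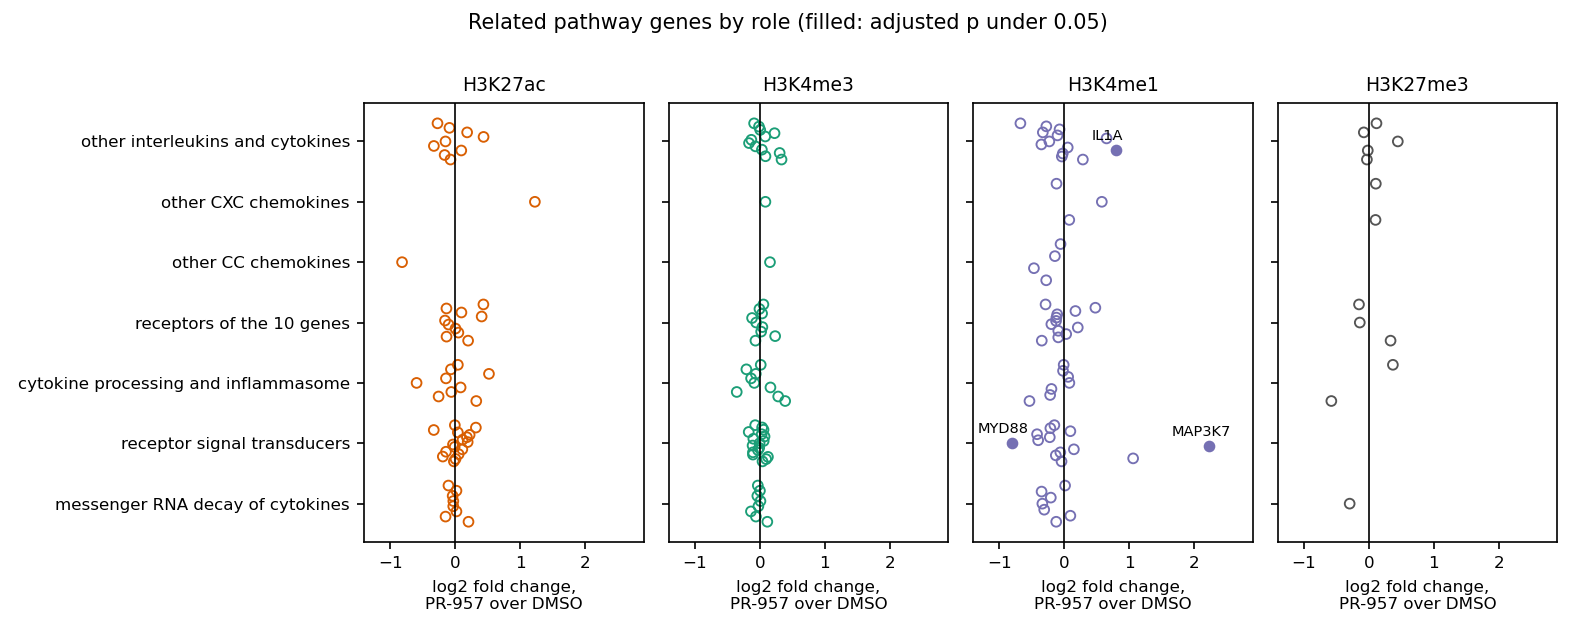
log2 fold change of PR-957 over DMSO for the related genes, by role (rows) and mark (panels), with 1 point per gene that has an interval near a TSS. Filled points passed an adjusted p of 0.05 in edgeR: IL1A, MAP3K7 and MYD88 in H3K4me1.

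Among the other cytokines, the smallest p in H3K27ac and H3K4me3 belonged to IL1RN, the interleukin-1 receptor antagonist, at 8.78 and 8.17 CPM in DMSO and 6.24 and 7.18 CPM in PR-957 for H3K27ac (log2 fold change -0.33, SE 0.22, adjusted p = 0.763) and with a log2 fold change of -0.17 (SE 0.10, adjusted p = 0.770) for H3K4me3. In H3K27me3 it belonged to IL15, an interleukin that sustains lymphocytes, with a log2 fold change of 0.45 (SE 0.46, adjusted p = 0.728). CCL20, which encodes a ligand of CCR6, had the only H3K27ac interval among the 12 other CC chemokine genes of the list, several of which (CCL5, CCL18 and CCL23 among them) lie in the stretch of chromosome 17 without intervals. It was at 5.60 and 4.44 CPM in DMSO and at 3.92 and 1.97 CPM in PR-957, with a log2 fold change of -0.82 (SE 0.32, unadjusted p = 0.0096, adjusted p = 0.406). In H3K4me1 CCL20 was also the CC chemokine with the smallest p (log2 fold change -0.47, SE 0.26, adjusted p = 0.356), and in H3K4me3 it had a log2 fold change of 0.16 (SE 0.29, adjusted p = 0.952). Of the CXC chemokines, CXCL16 had intervals of all 4 marks, some of which also cover starts of ZMYND15 or MED11, with a log2 fold change of 1.23 in H3K27ac (SE 0.67, adjusted p = 0.668, 6 to 40 counts per library), 0.11 in H3K27me3 (SE 0.09, adjusted p = 0.657) and 0.09 in H3K4me3 (SE 0.19, adjusted p = 0.962). CXCL11, an interferon-induced ligand of CXCR3, had the smallest p in H3K4me1, with a log2 fold change of 0.58 (SE 0.38, adjusted p = 0.462).

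For receptors, CCR1, a receptor of CCL3, was at 35.6 and 30.9 CPM of H3K4me1 in DMSO and at 24.5 and 27.6 CPM in PR-957 (log2 fold change -0.35, SE 0.11, adjusted p = 0.0793). H3K4me3 at CCR2, the receptor of CCL2, was at 14.9 and 14.6 CPM in DMSO and at 16.9 and 17.8 CPM in PR-957 (log2 fold change 0.24, SE 0.09, adjusted p = 0.445). IL1R1 had the smallest p of the receptors in H3K27ac (log2 fold change 0.41, SE 0.26, adjusted p = 0.747) and ACKR1 in H3K27me3 (log2 fold change 0.34, SE 0.29, adjusted p = 0.652).

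Among processing enzymes and inflammasome sensors, AIM2, a sensor of cytosolic DNA, had the smallest p in H3K27me3 and in H3K4me1, at different annotated starts. H3K27me3 (chr1:159186096-159190092) was at 8.04 and 6.43 CPM in DMSO and at 4.36 and 5.26 CPM in PR-957 (log2 fold change -0.58, SE 0.25, adjusted p = 0.210). H3K4me1 at AIM2 (chr1:159076399-159078320) was at 3.52 and 3.30 CPM in DMSO and at 2.31 and 2.39 CPM in PR-957 (log2 fold change -0.54, SE 0.27, adjusted p = 0.298). NLRP3, the sensor of the inflammasome that activates CASP1, was at 50.4 and 51.1 CPM of H3K4me3 in DMSO and at 44.7 and 43.3 CPM in PR-957 (log2 fold change -0.21, SE 0.07, unadjusted p = 0.0041, adjusted p = 0.308). MEFV, the pyrin gene, had the smallest p of this role in H3K27ac (log2 fold change -0.60, SE 0.29, adjusted p = 0.594).

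Nearly all signal transducer and decay factor genes had H3K27ac and H3K4me3 near at least 1 annotated start (16 and 17 of 17 transducers and 8 and 8 of 8 decay factors). TAB2, a partner of TAK1, was at 39.4 and 37.5 CPM of H3K27ac in DMSO and at 47.7 and 42.4 CPM in PR-957 (log2 fold change 0.22, SE 0.09, adjusted p = 0.487), and TLR2 had the smallest p of the transducers in H3K4me3 (log2 fold change -0.17, SE 0.10, adjusted p = 0.749). ZC3H12A, which encodes the RNase regnase-1 that degrades IL6 messenger RNA, was at 41.9 and 45.7 CPM of H3K4me1 in DMSO and at 35.6 and 33.7 CPM in PR-957 (log2 fold change -0.34, SE 0.12, adjusted p = 0.0920). In the same role, ZFP36L2 had the smallest p in H3K27ac (log2 fold change -0.11, SE 0.05, adjusted p = 0.632), KHSRP in H3K4me3 (log2 fold change -0.14, SE 0.08, adjusted p = 0.752) and ZFP36L1 in H3K27me3 (log2 fold change -0.29, SE 0.37, adjusted p = 0.790).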

How the data were processed

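Cut&Tag counts of 16 MOLM-13 libraries were analysed. The authors deposited whole-number counts of reads or fragments on a list of overlapping intervals per mark, shared by 4 libraries and not normalized. The submitters' processing notes name Trimmomatic 0.39, Bowtie2 2.2.5, Picard 2.27.1, SAMtools 1.7, SEACR 1.3, deepTools 3.5.1 and hg38, and the counter and the treatment of duplicates are not given in the sources used here. Coordinates follow the lists as deposited.

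Intervals kept by filterByExpr (minimum count 10) were TMM-scaled, and treatments were compared with edgeR 4.0.16's quasi-likelihood test (limma 3.58.1, R 4.3.3), two-sided, with Benjamini-Hochberg adjustment over all tested intervals of a mark at 0.05. Each mark was fitted by itself. The code was tested on simulated data. The intervals tested numbered 74510 (H3K27ac), 31806 (H3K27me3), 108158 (H3K4me1) and 59229 (H3K4me3). A represented gene may be of any GENCODE type, and 1 interval can represent several genes. CPM per kb divides by interval length, and percentiles are among protein-coding genes with an interval. Named were all 10 genes, the distal interval with the smallest p per gene and mark, and of the related genes those past the threshold and the one with the smallest p per mark and role. The members, lists and role groups were chosen with earlier results of these data known. Promoter sequences are from RefSeq, and identity was taken from a global alignment (match 1, mismatch -1, gap -2). Alternatives were other scalings, DESeq2 1.42.0, other count filters and windows, the replicate number as a block, and leaving out each library.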

Additional observations from a re-analysis of the deposited data

How the results depend on the processing

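None of the 12 promoter pairs passed the threshold of 0.05 under any of the 14 alternatives run on them, where the lowest adjusted p was 0.174, and 6 of the 12 changed sign under at least 1 alternative (IL1B, IL6 and CCL2 in H3K4me1, IL10 in H3K27ac and H3K4me1, CXCL2 in H3K27ac). Not every alternative gave each pair a value, since DESeq2 gave an adjusted p for 6 of the 12 pairs and a minimum mean count of 50 removed the faintest intervals. With distal intervals taken to 50 kb, 1 of 80 H3K4me1 intervals passed, that of IL1A, 44.1 kb from IL1B, and with 10 kb none of 14 did. Related genes past the threshold in H3K4me1 numbered 3, and 0 of 28 with an adjusted p in DESeq2, which gave none for the 3. Leaving out 1 library gave 0 to 3. The number was 0 when DMSO replicate 1 or PR-957 replicate 1 was left out, 2 (IL23A and CCR1) when DMSO replicate 2 was, and 3 (MAP3K7, MYD88 and IL1RAP) when PR-957 replicate 2 was. A window of 5 kb gave 4, with TAB2 besides. The number was 2 with cyclic loess offsets and with a mean count of at least 50, which removes MAP3K7 (IL1A and MYD88 in both), and 2 with the highest count per kb (MAP3K7 and CCR1). The causes of the other shifts were not tested. An arm left with 1 library was assumed to vary like the other.

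Nothing in the labels pairs the libraries beyond a shared number. Same-numbered libraries deviated together with r of -0.01 in H3K27ac and in H3K27me3, 0.01 in H3K4me1 and 0.17 in H3K4me3. With the replicate block, 0 promoter pairs, 0 distal intervals and 3 related genes passed, as without it. The H3K27ac interval of IL10 rests on 10 to 34 counts per library, so its value is among the least precise.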
